A study of Mus musculus with 46 samples.

Results

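The 36 genes described here encode parts of the lysosome and the TFEB pathway that controls it. They were chosen by symbol, for what they are known to do and with earlier results of these data known: 17 luminal hydrolases and their activators, 5 membrane proteins, 5 proton pump subunits, the autophagy receptor Sqstm1, the 3 transcription factors Mitf, Tfeb and Tfe3, and 5 Rag and folliculin genes. All 36 of the 45777 gene symbols were present in each of 5 tables of read counts, and all 36 passed the filter on low counts in each table. The counts came from bulk RNA-seq of intestinal tissue from male C57BL/6J mice, with no transgene or deletion named, in 15 groups of 3 libraries. In the acute experiment mice were controls or were dosed once by mouth with 600 mg/kg of either metformin or imeglimin, and colon was taken at 6 h. In the chronic experiment the drugs were given in drinking water at 3 mg/mL for 4 weeks, and treated and control mice gave 4 segments: colon and the proximal, middle and distal parts of the small intestine. The age of the mice, what the controls received, and whether 1 animal gave all chronic segments are not stated in the labels. The labels do not say that the 3 libraries of a group came from separate mice, so each p-value measures only how these samples spread, which may be technical. In whole tissue, fewer cells of a type and less RNA per cell cannot be told apart.

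Lysosomes are acidic organelles in which proteins, lipids and glycans are broken down by hydrolases, and their acidity is kept by the vacuolar proton pump. TFEB, TFE3 and MITF are related transcription factors that bind a palindromic E-box, called the CLEAR element, upstream of many lysosomal genes. While nutrients are plentiful the Rag GTPases RagC and RagD present these factors to the kinase mTORC1 on the lysosomal surface, which keeps them in the cytoplasm, and folliculin with its partners FNIP1 and FNIP2 sets the nucleotide state of RagC and RagD. The genes for RagD, folliculin and FNIP proteins are themselves known targets of these factors, and the activity of TFEB is set largely by where the protein is rather than by its mRNA. Both drugs lower blood glucose: metformin belongs to the biguanides, and in imeglimin that scaffold is closed into a tetrahydrotriazine ring.

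The upstream sequences were examined because the CLEAR element is the feature through which these genes are grouped in the literature. Windows from 250 bases before to 50 bases after the gene's start, taken from RefSeq on GRCm38.p6, matched 33 of the 36 members, and no window was used for Atp6v1h, Ctsb and Atp6v1b2. The E-box CACGTG, read on both strands, was found in 13 of these 33 members (39.4%) and in 2170 of 26742 genes with a window (8.11%). The longer CLEAR core TCACGTGA, which contains the E-box and was also read on both strands, was found in 7 members (21.2%), namely Atp6v0d1, Atp6v1a, Clcn7, Cln3, Ctsa, Ctsd and Mcoln1, and in 304 genes (1.14%). For comparison, the stress element TGATGNAA bound by ATF4 was found in 3 members (9.09%) and in 4.44% of genes, and the antioxidant element TGACNNNGC in 9 members (27.3%) and in 14% of genes. A match of letters is a description of these windows and not a measured binding site.

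The 150 bases just before a RefSeq start are shown for 8 members, 5′ to 3′ on the gene's own strand, with the CLEAR core or the E-box in capitals. Ctsa and Cln3 had 2 windows each and Tfeb had 3. The stretch shown comes from the window with the most CLEAR cores before the start, or else the first window. The other Cln3 window (chr7:126585768-126586067) held neither the E-box nor the CLEAR core, and nor did the other Ctsa window. Atp6v1a (chr16:44139260-44139409, minus strand), Ctsa (chr2:164833623-164833772, plus strand), Mcoln1 (chr8:3500369-3500518, plus strand), Cln3 (chr7:126583237-126583386, minus strand) and Ctsd (chr7:142387828-142387977, minus strand) are shown because their CLEAR core lies in this stretch. Lamp1 (chr8:13159011-13159160, plus strand) is shown because it holds 4 copies of the E-box, a choice made after they were seen. Rragd (chr4:32982848-32982997, plus strand) and Tfeb (chr17:47736887-47737036, plus strand) are shown as members whose printed stretch holds neither. For Rragd, unlike the other 7, no GENCODE transcript began near the RefSeq start.
Atp6v1a: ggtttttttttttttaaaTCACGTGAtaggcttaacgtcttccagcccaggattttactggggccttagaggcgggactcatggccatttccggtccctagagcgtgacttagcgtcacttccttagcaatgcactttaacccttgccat
Ctsa: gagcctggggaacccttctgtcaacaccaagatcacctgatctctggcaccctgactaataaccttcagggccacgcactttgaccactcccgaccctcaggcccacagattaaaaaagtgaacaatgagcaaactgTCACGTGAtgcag
Mcoln1: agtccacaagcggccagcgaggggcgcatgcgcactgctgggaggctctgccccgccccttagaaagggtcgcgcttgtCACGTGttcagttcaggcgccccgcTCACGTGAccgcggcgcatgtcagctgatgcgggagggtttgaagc
Cln3: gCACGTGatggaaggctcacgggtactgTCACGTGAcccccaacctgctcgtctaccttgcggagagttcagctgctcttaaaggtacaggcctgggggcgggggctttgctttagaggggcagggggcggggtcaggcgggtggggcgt
Ctsd: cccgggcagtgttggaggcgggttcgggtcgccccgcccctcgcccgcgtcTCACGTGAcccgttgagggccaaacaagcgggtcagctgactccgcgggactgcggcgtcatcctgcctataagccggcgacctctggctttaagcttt
Lamp1: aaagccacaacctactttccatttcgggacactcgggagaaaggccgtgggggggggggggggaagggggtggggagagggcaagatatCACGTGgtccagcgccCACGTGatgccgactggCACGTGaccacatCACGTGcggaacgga
Rragd: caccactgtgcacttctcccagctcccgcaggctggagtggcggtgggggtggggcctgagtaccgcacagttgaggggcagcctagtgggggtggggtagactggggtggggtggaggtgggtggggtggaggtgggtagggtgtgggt
Tfeb: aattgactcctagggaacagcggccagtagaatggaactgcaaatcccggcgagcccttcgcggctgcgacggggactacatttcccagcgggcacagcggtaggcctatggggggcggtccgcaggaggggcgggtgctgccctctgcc

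The deposited totals ran from 31606797 to 47324301 counts per library, and between 17295 and 18665 genes were tested per table. Among the untreated chronic libraries, proximal markers were highest in proximal (5750 to 6270 CPM, the count scaled to library size) and distal markers in distal small intestine (4140 to 5550 CPM). The 2 colon experiments differed from each other: the summed level of the colon markers was 8290 to 13500 CPM in the acute libraries and 704 to 1340 CPM in the chronic libraries. Within chronic colon it was 935 to 1340 CPM in the controls, 862 to 1070 CPM with imeglimin and 704 to 758 CPM with metformin. Distal markers in distal small intestine stood at 4250 to 5910 CPM with imeglimin and 5630 to 9510 CPM with metformin. The part of these regional shifts in the members' changes was not tested. Chronic colon control 3 held 25000 CPM of pancreatic transcripts against 192 to 310 CPM in the other 8 libraries of that table. Acute colon metformin 2 held 1830 CPM of smooth muscle markers against 4670 to 7530 CPM in the other 8 acute libraries. Counts that moved by over 1.5 times when 1 library was left out are given below with that library.

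Metformin was followed by higher levels of lysosomal genes in every segment examined, with the most members called in chronic colon. There 28 members were higher and 1 was lower at an edgeR adjusted p under 0.05, where 11.6% of all genes tested were called higher and 8.04% lower, and the members' median log2 fold change was 0.47 against -0.05 over all genes. In chronic proximal small intestine 14 members were higher and 0 lower (1.65% and 2.46% of all genes), in middle 11 and 0 (0.29% and 0.0502%) and in distal 8 and 0 (0.592% and 0.0329%). The members' median log2 fold changes there were 0.26, 0.39 and 0.36, against -0.01, 0.00199 and -0.03 over all genes. Because the share of all genes called also differed between the segments, the counts of members do not rank them. In acute colon 12 were higher and 2 lower (11.3% and 8.37%). With imeglimin the counts were 16 higher and 3 lower in acute colon (18.1% and 15.1%) and 13 higher and 0 lower in chronic colon (7.97% and 5.07%). In the small intestine imeglimin gave 1 higher and 0 lower in proximal (0.393% and 0.763%), 0 in middle (0.0167% and 0.0111%) and 1 higher and 0 lower in distal (0.0219% and 0%). Over these 10 comparisons each of the 36 members was called at least once, 32 of them only higher and 4 only lower (Acp2, Ctsf, Sgsh and Mitf), and 0 in both directions. The 2 drugs of a table were compared with the same 3 control libraries.

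**Figure D1:**
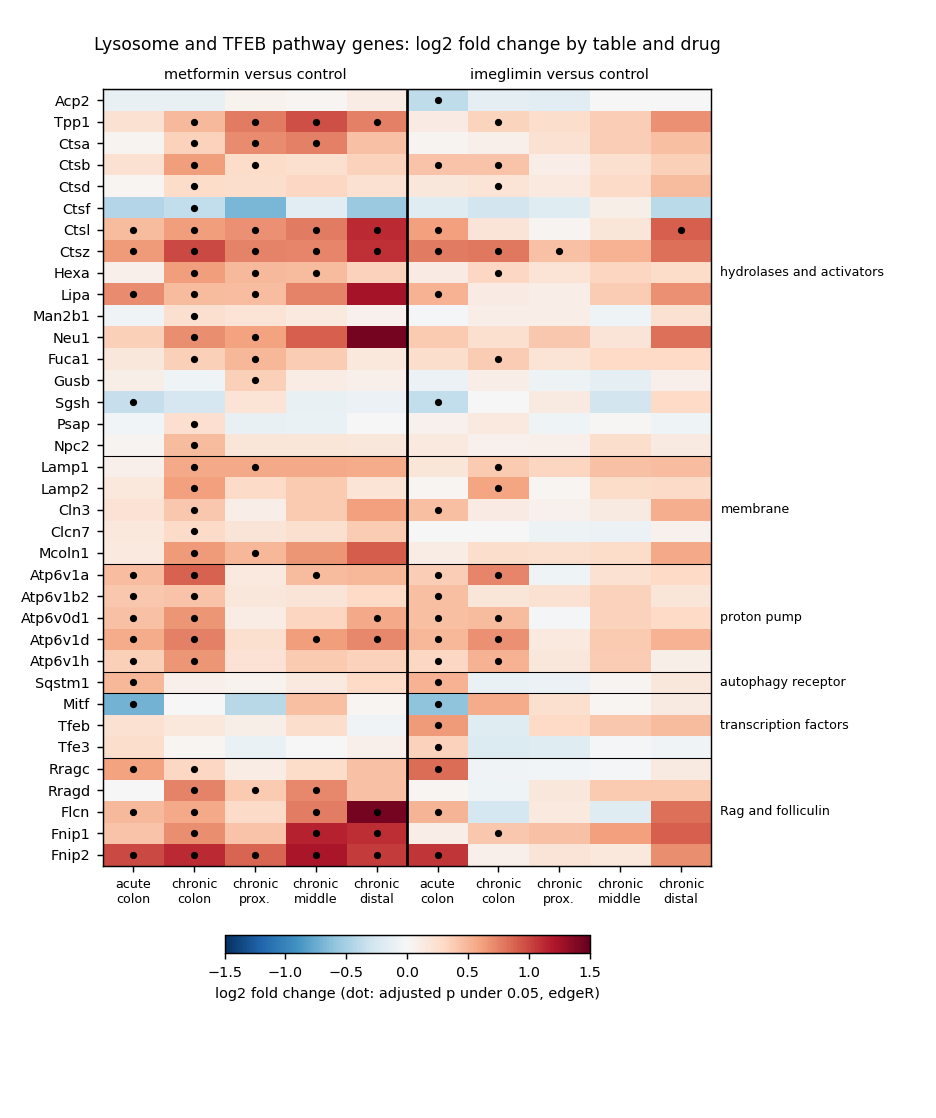
Log2 fold change of the 36 members (rows, grouped by role) for metformin and imeglimin against control in the 5 tables (columns), with a dot where the edgeR adjusted p was under 0.05. The chronic colon column under metformin holds 29 dots, 28 of them on higher genes, and the imeglimin columns of the small intestine hold 1, 0 and 1.

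The proton pump, which acidifies the lysosome, rose together in chronic colon under metformin: 5 of 5 members were called higher, with a median log2 fold change of 0.67. Atp6v1a, the catalytic A subunit, was at 79.5, 75.2 and 68.7 CPM in the controls and 128, 145 and 144 CPM with metformin (log2 fold change 0.88 ± 0.086, edgeR adjusted p = 0.000291). Atp6v1d, the D subunit of the rotor, went from 41.1, 43.3 and 43.8 CPM to 73.3, 72.9 and 72.8 CPM (log2 fold change 0.75 ± 0.074, edgeR adjusted p = 0.000291). Atp6v0d1, the d subunit that joins the membrane sector to the rotor, went from 73.7, 73.4 and 69.2 CPM to 114, 116 and 118 CPM (log2 fold change 0.67 ± 0.066, edgeR adjusted p = 0.000291). For these 3 subunits every metformin library lay above every control library. Here and below, separation of groups is given as a description of the values. The share of all genes whose groups separate was not counted. Most genes described this way were picked by their adjusted p, so separation adds no support to the test. Atp6v1h (0.66 ± 0.074) and Atp6v1b2 (0.42 ± 0.062) rose by less, with groups that did not overlap either.

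All 5 membrane proteins rose in chronic colon under metformin, with a median log2 fold change of 0.56. Lamp1, a main glycoprotein of the lysosomal membrane, was at 371, 404 and 362 CPM in the controls and 555, 592 and 558 CPM with metformin (log2 fold change 0.56 ± 0.068, edgeR adjusted p = 0.000667). Lamp2, its relative with a role in chaperone-mediated autophagy, went from 129.9, 115 and 125 CPM to 190.3, 192 and 193 CPM (log2 fold change 0.62 ± 0.083, edgeR adjusted p = 0.00112). Mcoln1, the calcium channel that releases lysosomal calcium, went from 33.01, 28.6 and 32.1 CPM to 49.6, 46.7 and 52.1 CPM (log2 fold change 0.64 ± 0.09, edgeR adjusted p = 0.0014). None of the 3 pairs of groups overlapped. Cln3 (0.40 ± 0.087) and the chloride exchanger Clcn7 (0.29 ± 0.076) also rose.

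Among the 17 hydrolases and activators 13 rose and 1 fell in chronic colon under metformin, with a median log2 fold change of 0.36. The largest change among them was that of Ctsz, a carboxypeptidase cathepsin, at 101, 105 and 98.9 CPM in the controls and 198, 217 and 199 CPM with metformin (log2 fold change 0.99 ± 0.11, edgeR adjusted p = 0.000437), a ratio of 1.99. Hexa, a subunit of beta-hexosaminidase, which breaks down gangliosides, went from 98.7, 109.8 and 95.4 CPM to 160.4, 164 and 151 CPM (log2 fold change 0.63 ± 0.071, edgeR adjusted p = 5e-04). Npc2, which passes cholesterol from the lumen to the membrane, went from 199.6, 191 and 197 CPM to 274, 287 and 267 CPM (log2 fold change 0.47 ± 0.074, edgeR adjusted p = 0.00228). These 3 genes were higher in each metformin library than in any control.

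The rise took in peptidases, glycosidases and a lipase. Ctsb, an endopeptidase, went from 356, 323 and 320.2 CPM to 489.6, 534 and 537 CPM (log2 fold change 0.62 ± 0.1, edgeR adjusted p = 0.0034). Tpp1, a tripeptidyl peptidase, went from 63.3, 57.3 and 63.1 CPM to 86.01, 88.2 and 86.96 CPM (log2 fold change 0.49 ± 0.085, edgeR adjusted p = 0.00413). The sialidase Neu1 (0.70 ± 0.13), Ctsl (0.62 ± 0.13), the acid lipase Lipa (0.47 ± 0.1), Fuca1 (0.36 ± 0.07), Ctsa (0.35 ± 0.063), Ctsd (0.27 ± 0.06), Psap (0.25 ± 0.069) and Man2b1 (0.24 ± 0.072) rose as well, in log2 ± SE. Ctsf was the member that fell, from 20.01, 18.6 and 19.5 CPM to 14.6, 14.1 and 16.9 CPM (log2 fold change -0.38 ± 0.11, edgeR adjusted p = 0.0361). Acp2 (-0.11 ± 0.081), Gusb (-0.06 ± 0.098) and Sgsh (-0.25 ± 0.12) did not pass the test. With the batch number of the labels as a block, Ctsf (edgeR adjusted p = 0.0554) and Man2b1 (0.0593) no longer passed.

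All 5 Rag and folliculin genes rose in chronic colon under metformin, with a median log2 fold change of 0.70. Fnip2, a partner of folliculin, was at 86.4, 64.3 and 70.8 CPM in the controls and 152, 147 and 188 CPM with metformin (log2 fold change 1.12 ± 0.16, edgeR adjusted p = 0.00151), the largest change of any member there. Fnip1, the other partner, went from 44.2, 35.3 and 40.3 CPM to 63.2, 63.4 and 71.3 CPM (log2 fold change 0.70 ± 0.093, edgeR adjusted p = 0.00102). Flcn, folliculin itself, went from 47.2, 42.8 and 39.6 CPM to 61.04, 62.3 and 70.95 CPM (log2 fold change 0.56 ± 0.085, edgeR adjusted p = 0.00189). In none of these did the groups overlap. Rragc, the gene of RagC, went from 62.3, 66.3 and 62.01 CPM to 81.4, 80.1 and 77.6 CPM (log2 fold change 0.31 ± 0.06, edgeR adjusted p = 0.00738). Rragd was low in colon, at 3.503, 3.35 and 4.28 CPM in the controls and 5.59, 6.71 and 6.66 CPM with metformin (log2 fold change 0.74 ± 0.18, edgeR adjusted p = 0.0182), again without overlap.

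None of the 3 transcription factors was called in this comparison. Tfeb was at 18.9, 25.8 and 27.4 CPM in the controls and 26.8, 26.7 and 28.5 CPM with metformin (log2 fold change 0.16 ± 0.14, edgeR adjusted p = 0.449). Tfe3 was at 35.4, 33.4 and 31.8 CPM and 33.98, 35.4 and 35.1 CPM (log2 fold change 0.03 ± 0.062, edgeR adjusted p = 0.726). Mitf was at 3.21, 4.13 and 3.25 CPM and 3.36, 3.43 and 3.98 CPM (log2 fold change 0.01 ± 0.19, edgeR adjusted p = 0.981). The groups overlapped for all 3. Sqstm1, the autophagy receptor p62, stood at 310.2, 274 and 269 CPM and 279.9, 304 and 329 CPM, with overlapping groups (log2 fold change 0.08 ± 0.1, edgeR adjusted p = 0.619). With each control or metformin library left out in turn, between 24 and 26 members were called in this comparison; without control 3, the library with pancreatic transcripts, the count was 24 and the members' median was 0.51.

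**Figure D2:**
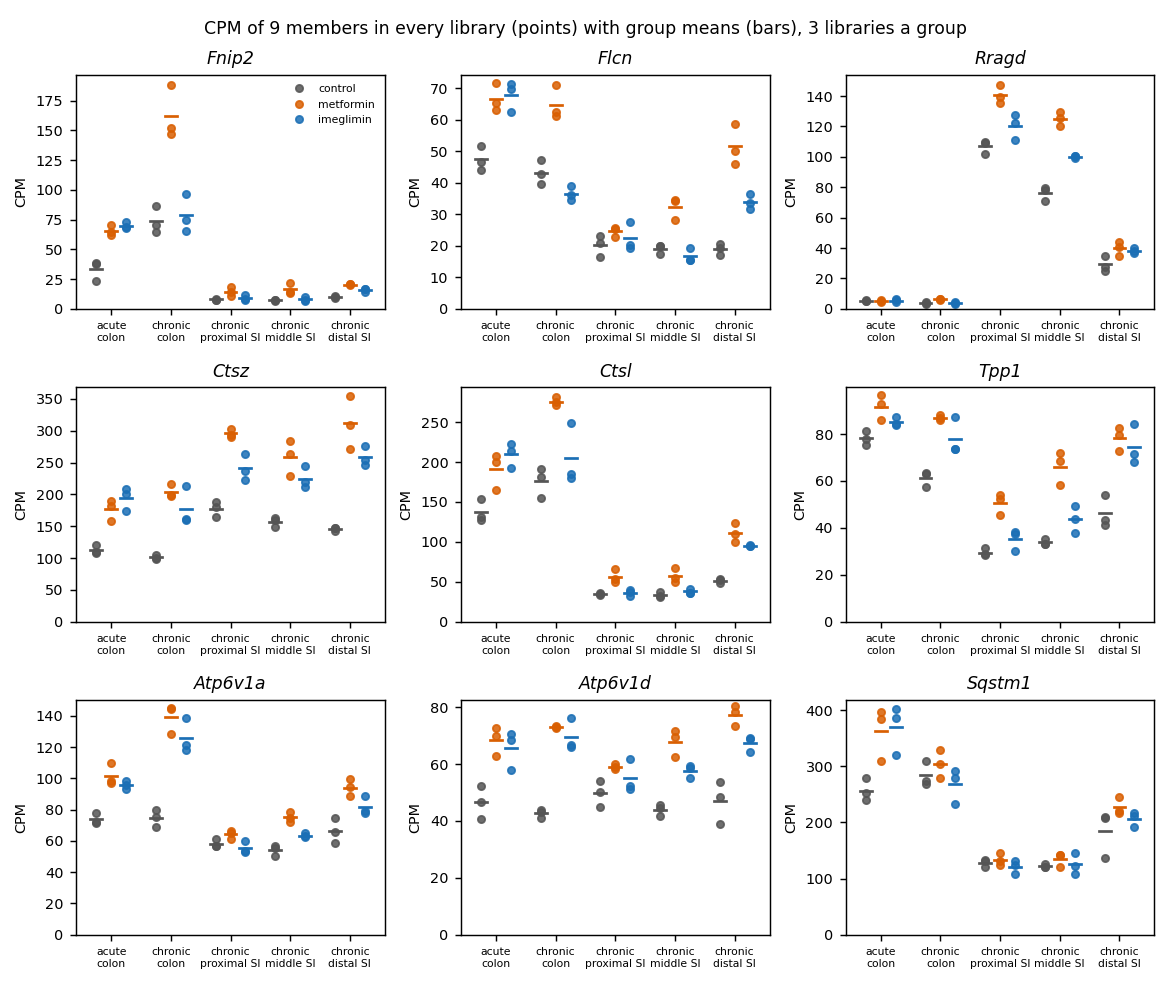
CPM (linear axis from 0) of 9 members in every library of the 5 tables, with points for libraries and short bars for the group means of 3. Ctsl, Ctsz and Fnip2 were called higher with metformin in all 5 tables, and Fnip2 under chronic imeglimin stayed among the controls in colon.

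The 4 members Ctsl, Ctsz, Fnip2 and Tpp1 were called higher with metformin in all 4 chronic segments, and 6 more (Atp6v1d, Ctsa, Flcn, Fnip1, Hexa and Rragd) in 3 of them. In proximal small intestine the rise was mostly one of hydrolases: 10 of 17 rose, with 0 of 5 pump subunits. Ctsa, the protective protein of Neu1 and a carboxypeptidase, was at 115, 128 and 113 CPM in the controls and 186, 186 and 208 CPM with metformin (log2 fold change 0.71 ± 0.078, edgeR adjusted p = 0.00475). Ctsz went from 179.8, 164 and 188 CPM to 303, 291 and 294 CPM (log2 fold change 0.74 ± 0.078, edgeR adjusted p = 0.00475). Fuca1, which removes fucose from glycans, went from 161, 149 and 161 CPM to 219, 221 and 224 CPM (log2 fold change 0.49 ± 0.061, edgeR adjusted p = 0.00753). The groups were apart in each case. Tpp1 (0.78 ± 0.1), Hexa (0.48 ± 0.072) and Ctsl (0.68 ± 0.11) rose as well, in log2 ± SE.

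Of the remaining roles in proximal small intestine, Lamp1 went from 480.0, 574 and 509 CPM to 772, 736 and 808 CPM (log2 fold change 0.57 ± 0.087, edgeR adjusted p = 0.00958) and Mcoln1 from 23.4, 25.99 and 24.6 CPM to 35.4, 32.97 and 36.1 CPM (log2 fold change 0.50 ± 0.073, edgeR adjusted p = 0.00958). Rragd, abundant in this segment, went from 109.9, 109 and 102 CPM to 147, 136 and 139.7 CPM (log2 fold change 0.40 ± 0.069, edgeR adjusted p = 0.0153). Fnip2 went from 7.73, 7.804 and 8.22 CPM to 14.5, 10.8 and 18.1 CPM (log2 fold change 0.87 ± 0.2, edgeR adjusted p = 0.0365). All 4 rose without overlap. Flcn (0.28 ± 0.15), Fnip1 (0.42 ± 0.12), Rragc (0.12 ± 0.071), Sqstm1 (0.06 ± 0.086), Tfeb (0.08 ± 0.13), Tfe3 (-0.10 ± 0.085) and Mitf (-0.42 ± 0.28) did not pass the test. With the batch block the calls of Ctsb, Gusb and Lipa were lost (edgeR adjusted p = 0.0664, 0.0551 and 0.0551). The count of members called fell to 5 without metformin 3 and to 8 without metformin 1.

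In middle small intestine 4 of 5 Rag and folliculin genes rose, and Fnip2 and Fnip1 changed most of the members called. Fnip1 was at 29.3, 35.7 and 36.5 CPM in the controls and 82.05, 65.9 and 78.00 CPM with metformin (log2 fold change 1.15 ± 0.12, edgeR adjusted p = 0.00935). Fnip2 went from 6.69, 7.22 and 7.12 CPM to 14.2, 13.6 and 21.4 CPM (log2 fold change 1.23 ± 0.2, edgeR adjusted p = 0.0484). Rragd went from 79.3, 78.1 and 70.8 CPM to 129, 120.5 and 125 CPM (log2 fold change 0.72 ± 0.068, edgeR adjusted p = 0.00655). Flcn, with 17.3, 19.8 and 19.8 CPM in the controls and 28.1, 34.6 and 34.1 CPM with metformin, was called too (log2 fold change 0.77 ± 0.12, edgeR adjusted p = 0.0427), and no pair of these groups overlapped. Rragc (0.27 ± 0.072) did not pass.

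In the same segment 5 of 17 hydrolases and 2 of 5 pump subunits also rose. Tpp1 went from 35.2, 33.3 and 32.95 CPM to 58.2, 68.3 and 71.8 CPM (log2 fold change 0.97 ± 0.11, edgeR adjusted p = 0.0132). Atp6v1d went from 44.6, 41.7 and 45.7 CPM to 62.7, 69.4 and 71.7 CPM (log2 fold change 0.63 ± 0.075, edgeR adjusted p = 0.0132). The others were Ctsl (0.78 ± 0.12), Ctsa (0.76 ± 0.1), Ctsz (0.73 ± 0.098), Hexa (0.47 ± 0.077) and Atp6v1a (0.47 ± 0.069). Tfeb (0.26 ± 0.18), Tfe3 (-0.01 ± 0.089), Mitf (0.45 ± 0.22) and Sqstm1 (0.14 ± 0.11) did not pass. Under the block 5 of the 11 stayed called, and Atp6v1a (edgeR adjusted p = 0.105), Ctsl (0.127), Ctsz (0.0689), Flcn (0.0626), Fnip2 (0.141) and Hexa (0.0849) did not. The count was 0 without control 2, 4 without control 1, 4 without metformin 3 and 5 without metformin 1, while the members' median log2 fold change stayed between 0.33 and 0.43.

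In distal small intestine Flcn showed the largest change of the members called, from 17.2, 19.4 and 20.7 CPM in the controls to 46.03, 58.5 and 49.98 CPM with metformin (log2 fold change 1.43 ± 0.13, edgeR adjusted p = 0.00509), a ratio of 2.7. Ctsl, an endopeptidase, went from 53.2, 48.4 and 51.9 CPM to 100.3, 123 and 109.8 CPM (log2 fold change 1.12 ± 0.092, edgeR adjusted p = 0.00509). These were the 2 members whose calls held in every alternative. Ctsz went from 142, 147 and 148 CPM to 272, 309 and 355 CPM (log2 fold change 1.10 ± 0.11, edgeR adjusted p = 0.00889). Fnip1 went from 26.8, 35.1 and 35.9 CPM to 69.8, 72.2 and 68.95 CPM (log2 fold change 1.11 ± 0.13, edgeR adjusted p = 0.0146). Fnip2 went from 11.1, 8.71 and 9.53 CPM to 19.6, 20.5 and 20.5 CPM (log2 fold change 1.05 ± 0.14, edgeR adjusted p = 0.0204). Tpp1 (0.76 ± 0.13), Atp6v1d (0.72 ± 0.12) and Atp6v0d1 (0.57 ± 0.094) were called as well, and for all 8 genes the groups were apart. In the blocked fit 6 calls were lost, those of Ctsz (edgeR adjusted p = 0.0524), Fnip1 (0.0862), Fnip2 (0.101), Atp6v1d (0.148), Tpp1 (0.158) and Atp6v0d1 (0.161).

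Other members of the distal segment had large differences and a wide spread between controls. Neu1 was at 129, 259 and 253 CPM in the controls and 478, 628 and 626 CPM with metformin (log2 fold change 1.43 ± 0.26, edgeR adjusted p = 0.0577). Lipa was at 23.5, 44.2 and 50.1 CPM and 89.3, 86.1 and 104 CPM (log2 fold change 1.25 ± 0.24, edgeR adjusted p = 0.0677). Mcoln1 was at 20.9, 33.3 and 34.5 CPM and 49.3, 59.5 and 57.3 CPM (log2 fold change 0.91 ± 0.19, edgeR adjusted p = 0.0803). None passed the test although the groups did not overlap, and control 1 was the lowest library in all 3. Rragd (0.44 ± 0.15), Rragc (0.44 ± 0.12), Sqstm1 (0.30 ± 0.16), Tfeb (-0.05 ± 0.36), Tfe3 (0.08 ± 0.089) and Mitf (0.03 ± 0.29) did not pass either. The count of 8 was 2 without control 2, 2 without metformin 2, 3 without metformin 3 and 5 without control 3, and it was 8 without control 1, of which 6 were shared with the full set.

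At 6 h after a single dose the proton pump and part of the Rag and folliculin group were higher in colon with both drugs. All 5 pump subunits were called higher with either drug. Atp6v0d1 was at 93.7, 94.9 and 89.7 CPM in the controls, 127, 127 and 123 CPM with metformin (log2 fold change 0.44 ± 0.081, edgeR adjusted p = 0.00386) and 118, 134 and 129 CPM with imeglimin (log2 fold change 0.45 ± 0.081, edgeR adjusted p = 0.00186). Atp6v1a was at 77.9, 72.03 and 71.2 CPM in the controls, 96.8, 98.5 and 109.6 CPM with metformin (log2 fold change 0.46 ± 0.084, edgeR adjusted p = 0.00356) and 92.9, 95.5 and 98.2 CPM with imeglimin (log2 fold change 0.37 ± 0.084, edgeR adjusted p = 0.00616). Neither drug's libraries overlapped the controls for these subunits. Atp6v1d (0.55 and 0.49 for metformin and imeglimin, log2), Atp6v1b2 (0.40 and 0.46) and Atp6v1h (0.35 and 0.31) rose too. With batch as a block Atp6v1h was lost for both drugs (edgeR adjusted p = 0.0509 and 0.0539).

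Of the Rag and folliculin genes, the same 3 were called higher at 6 h with metformin and with imeglimin. Fnip2 was at 38.3, 23.8 and 37.6 CPM in the controls, 62.1, 70.5 and 64.7 CPM with metformin (log2 fold change 0.98 ± 0.15, edgeR adjusted p = 0.00163) and 72.8, 68.5 and 68.4 CPM with imeglimin (log2 fold change 1.07 ± 0.15, edgeR adjusted p = 0.000578). Rragc was at 59.3, 61.2 and 66.01 CPM, 90.3, 98.4 and 95.3 CPM (log2 fold change 0.61 ± 0.092, edgeR adjusted p = 0.0013) and 101, 120.1 and 113 CPM (log2 fold change 0.84 ± 0.092, edgeR adjusted p = 0.00013). Flcn was at 44.1, 46.6 and 51.7 CPM, 65.2, 71.5 and 63.1 CPM (log2 fold change 0.49 ± 0.096, edgeR adjusted p = 0.00556) and 69.7, 71.4 and 62.3 CPM (log2 fold change 0.51 ± 0.096, edgeR adjusted p = 0.00236). All 3 genes were higher in each treated library than in any control. Rragd, which did not pass, stood at 5.34 ± 0.169 CPM (SD, n = 3) in the controls, 5.32 ± 0.774 CPM with metformin and 5.44 ± 0.925 CPM with imeglimin. Fnip1 did not pass for metformin (0.43 ± 0.15) or imeglimin (0.10 ± 0.15).

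Sqstm1 rose with both drugs in the acute experiment, all 3 transcription factors were called with imeglimin, and Mitf with metformin. Sqstm1 was at 239, 252 and 279.6 CPM in the controls, 398, 384 and 310.1 CPM with metformin (log2 fold change 0.50 ± 0.12, edgeR adjusted p = 0.0168) and 320.4, 403 and 387 CPM with imeglimin (log2 fold change 0.53 ± 0.12, edgeR adjusted p = 0.00794). Tfeb was at 15.6, 20.98 and 21.9 CPM, 24.9, 24.2 and 19.7 CPM (log2 fold change 0.23 ± 0.14, edgeR adjusted p = 0.252) and 29.2, 29.9 and 31.9 CPM (log2 fold change 0.64 ± 0.14, edgeR adjusted p = 0.00482), so that it was called with imeglimin and overlapped the controls with metformin. The difference between the drugs for Tfeb, 0.40 (95% interval 0.1 to 0.7), did not pass (edgeR adjusted p = 0.191). Tfe3 was at 27.9, 32.5 and 35.5 CPM, 41.1, 38.7 and 35.3 CPM (log2 fold change 0.26 ± 0.11, edgeR adjusted p = 0.125) and 37.3, 40.8 and 44.1 CPM (log2 fold change 0.35 ± 0.11, edgeR adjusted p = 0.0343). Mitf, the least abundant of the 3, fell from 3.31, 3.94 and 3.26 CPM to 1.81, 1.98 and 2.63 CPM (log2 fold change -0.71 ± 0.21, edgeR adjusted p = 0.0345) and 2.22, 2.51 and 2.18 CPM (log2 fold change -0.60 ± 0.21, edgeR adjusted p = 0.0431). Under the batch block Tfe3 under imeglimin (edgeR adjusted p = 0.0549) and Mitf under metformin (0.0587) and imeglimin (0.0689) were lost.

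Of the 17 luminal enzymes and activators, 3 rose and 1 fell at 6 h with metformin, and 4 rose and 2 fell with imeglimin. Over all genes 11.3% rose and 8.37% fell with metformin and 18.1% and 15.1% with imeglimin, so the counts of these enzymes lie near the background. Ctsz was at 110.2, 121 and 108 CPM in the controls, 189, 182 and 158 CPM with metformin (log2 fold change 0.64 ± 0.1, edgeR adjusted p = 0.00194) and 173, 201 and 208 CPM with imeglimin (log2 fold change 0.78 ± 0.1, edgeR adjusted p = 0.000377). Lipa was at 65.8, 60.1 and 57.6 CPM, 103, 112 and 85.4 CPM (log2 fold change 0.71 ± 0.12, edgeR adjusted p = 0.00253) and 77.5, 88.4 and 98.2 CPM (log2 fold change 0.53 ± 0.12, edgeR adjusted p = 0.00667). Ctsl rose with metformin (0.47 ± 0.11) and imeglimin (0.61 ± 0.11), and Ctsb was called with imeglimin (0.42 ± 0.091) but not with metformin (0.23 ± 0.091). Sgsh, a sulfatase of heparan sulfate breakdown, fell from 23.1, 25.4 and 23.00 CPM to 17.8, 18.1 and 20.5 CPM (log2 fold change -0.34 ± 0.11, edgeR adjusted p = 0.0479) and 20.6, 17.5 and 17.1 CPM (log2 fold change -0.37 ± 0.11, edgeR adjusted p = 0.0229). With the batch block its call under metformin was lost (edgeR adjusted p = 0.0875). Acp2, an acid phosphatase, fell with imeglimin (log2 fold change -0.38 ± 0.087, edgeR adjusted p = 0.00718). Of the membrane proteins 0 of 5 were called with metformin and Cln3 alone with imeglimin (log2 fold change 0.45 ± 0.12, edgeR adjusted p = 0.0116). The metformin count of 14 was 8 without control 2 and 9 without control 3, and 12 without metformin 2, the library low in smooth muscle markers. The imeglimin count of 19 stayed between 15 and 19.

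After 4 weeks 4 of 5 pump subunits, 2 of 5 membrane proteins and 1 of 5 Rag and folliculin genes were higher with imeglimin in colon. The pump subunits Atp6v1a (121, 118 and 139 CPM, log2 fold change 0.74 ± 0.086, edgeR adjusted p = 0.00292), Atp6v1d (66.9, 66.1 and 76.2 CPM, log2 fold change 0.68 ± 0.074, edgeR adjusted p = 0.00292) and Atp6v0d1 (98.7, 97.1 and 109 CPM, log2 fold change 0.47 ± 0.065, edgeR adjusted p = 0.00385) lay above the controls given earlier in every library. Atp6v1h rose (0.53 ± 0.074), and Atp6v1b2 did not pass (0.18 ± 0.062, edgeR adjusted p = 0.08). Lamp2 was at 179.9, 176 and 208 CPM (log2 fold change 0.59 ± 0.083, edgeR adjusted p = 0.00392) and Lamp1 at 478, 507 and 523 CPM (log2 fold change 0.39 ± 0.068, edgeR adjusted p = 0.00764). Of the hydrolases 6 of 17 rose: Ctsz (160.2, 161 and 212 CPM, log2 fold change 0.79 ± 0.11, edgeR adjusted p = 0.00385), Fuca1 (0.39 ± 0.07), Hexa (0.31 ± 0.071), Ctsb (0.43 ± 0.1), Tpp1 (0.33 ± 0.085) and Ctsd (0.21 ± 0.06). Ctsd was lost with the batch block (edgeR adjusted p = 0.079). Without control 3, the library with pancreatic transcripts, the 13 calls became 8, and they became 8 without imeglimin 3.

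The Rag and folliculin values under chronic imeglimin were mixed. Fnip1 rose to 50.8, 54.8 and 55.3 CPM (log2 fold change 0.40 ± 0.093, edgeR adjusted p = 0.0215). Fnip2 stood at 74.98, 65.8 and 96.96 CPM (log2 fold change 0.08 ± 0.16, edgeR adjusted p = 0.786), Rragd at 3.13, 3.498 and 4.19 CPM (log2 fold change -0.07 ± 0.18, edgeR adjusted p = 0.855) and Rragc at 63.2, 59.97 and 63.1 CPM (log2 fold change -0.05 ± 0.06, edgeR adjusted p = 0.61), all overlapping the controls. Flcn stood at 34.4, 35.98 and 38.9 CPM, below each of its controls, without passing the test (log2 fold change -0.27 ± 0.085, edgeR adjusted p = 0.0693). Tfeb (-0.18 ± 0.14), Tfe3 (-0.20 ± 0.062), Mitf (0.55 ± 0.19) and Sqstm1 (-0.10 ± 0.1) did not pass.

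In the small intestine imeglimin gave 2 calls. Ctsz in proximal small intestine went from 179.8, 164 and 188 CPM to 238, 263 and 222 CPM (log2 fold change 0.44 ± 0.077, edgeR adjusted p = 0.0329; with the batch block edgeR adjusted p = 0.0653). Ctsl in distal small intestine went from 53.2, 48.4 and 51.9 CPM to 95.2, 94.3 and 96.2 CPM (log2 fold change 0.90 ± 0.092, edgeR adjusted p = 0.0356; with the batch block edgeR adjusted p = 0.228). Ctsl was not called without any 1 of the 6 libraries compared, and Ctsz was called without control 3 or imeglimin 3 but not without any of the other 4. In middle small intestine the edgeR count was 0, with 19 members at an unadjusted p under 0.05 and a median log2 fold change of 0.25 against -0.02 over all genes, and DESeq2 called 11. Shares of all genes at an unadjusted p under 0.05, or called by DESeq2, are not given, so those counts have no background beside them. Fnip1 there was at 29.3, 35.7 and 36.5 CPM in the controls and 52.00, 56.3 and 47.2 CPM with imeglimin (log2 fold change 0.61 ± 0.12, edgeR adjusted p = 0.085), without overlap. In distal small intestine 33 of 36 members had a positive log2 fold change with a median of 0.30, and Fnip1 (0.90 ± 0.13), Ctsz (0.83 ± 0.11) and Flcn (0.82 ± 0.13) had the next lowest edgeR adjusted p, up to 0.107. The median over all genes there, and the share of them with a positive log2 fold change, are not given, so the 33 has no background.

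The drugs were then compared with each other, as 1 pair in each of 5 tables, with p-values adjusted over all genes tested. In acute colon the dose by weight was the same. In the chronic segments the concentration in drinking water was the same, and the amount drunk is not known here. Their doses in moles were not compared, and a p that misses the threshold does not show that the drugs act alike. In acute colon 0 members differed (0.645% of all genes), with 4 at an unadjusted p under 0.05 and 0 called by DESeq2. The differences there ran from -0.34 for Fnip1 to 0.40 for Tfeb. In chronic colon 4 members were lower with imeglimin than with metformin (0.611% of all genes were called), 3 of them Rag and folliculin genes. Flcn was at 61.04, 62.3 and 70.95 CPM with metformin and 34.4, 35.98 and 38.9 CPM with imeglimin, a difference of -0.83 (95% interval -1 to -0.64) (edgeR adjusted p = 0.0074), and was called with any library left out. Fnip2 was at 152, 147 and 188 CPM and 74.98, 65.8 and 96.96 CPM, a difference of -1.03 (95% interval -1.4 to -0.68) (edgeR adjusted p = 0.0302). Rragc differed by -0.36 (95% interval -0.49 to -0.22) and Npc2 by -0.41 (95% interval -0.57 to -0.24) (edgeR adjusted p = 0.0402 and 0.0499), and both were lost with the batch block (0.0739 and 0.0692). The 4 pairs of groups did not overlap. The count was 1 without imeglimin 1, imeglimin 2 or any metformin library, and 9 without imeglimin 3.

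No pump subunit was called different between the drugs in chronic colon. The difference was -0.14 (95% interval -0.33 to 0.044) for Atp6v1a, -0.07 (95% interval -0.23 to 0.098) for Atp6v1d, and for the membrane protein Lamp2, also not called, it was -0.03 (95% interval -0.21 to 0.16). In proximal small intestine 4 hydrolases were lower with imeglimin (1.09% of all genes were called). Ctsa was at 186, 186 and 208 CPM with metformin and 128, 146 and 143 CPM with imeglimin, a difference of -0.48 (95% interval -0.65 to -0.31) (edgeR adjusted p = 0.0223). Ctsl differed by -0.64 (95% interval -0.87 to -0.4), Tpp1 by -0.52 (95% interval -0.74 to -0.3) and Gusb by -0.44 (95% interval -0.61 to -0.27) (edgeR adjusted p = 0.0241, 0.0377 and 0.0268), and Gusb was lost with the batch block (0.0586). The proximal count was 2 without imeglimin 2 or metformin 2 and 0 without any of the other 4 libraries. In middle small intestine 0 members were called (0% of all genes), with 15 at an unadjusted p under 0.05 and 10 called by DESeq2. Flcn there differed by -0.95 (95% interval -1.2 to -0.67) and Fnip2 by -1.07 (95% interval -1.5 to -0.61) (edgeR adjusted p = 0.113 and 0.179). In distal small intestine 0 were called (0.0494% of all genes), with 10 at an unadjusted p under 0.05 and 1 called by DESeq2. The shares of all genes in these comparisons are those of edgeR, and the unadjusted and DESeq2 counts have none beside them.

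**Figure D3:**
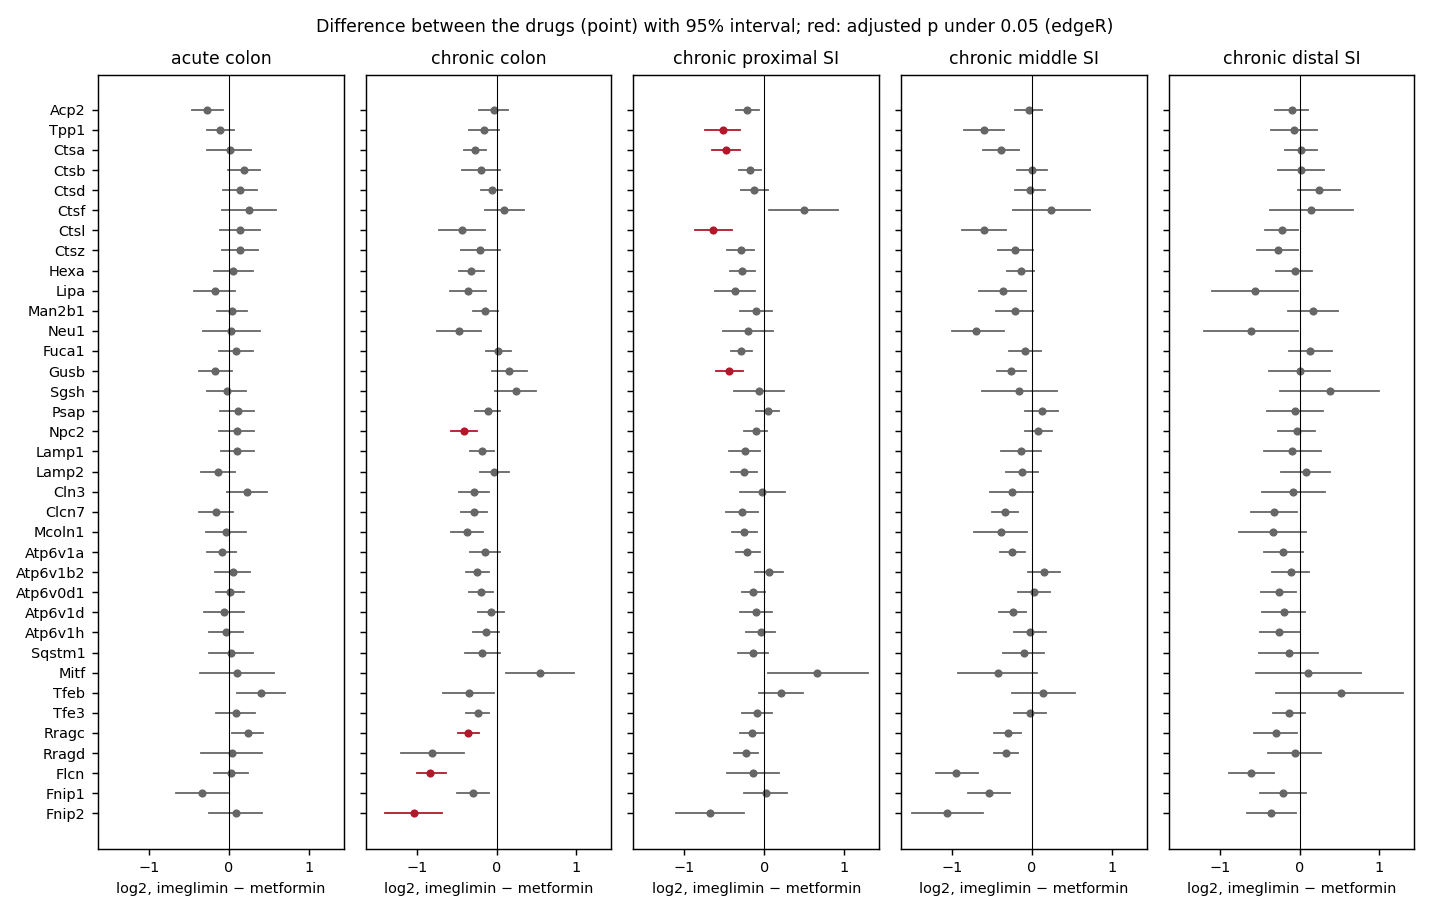
Difference between imeglimin and metformin (log2) for the 36 members in the 5 tables, as points with 95% intervals, in red where the edgeR adjusted p was under 0.05. Flcn and Fnip2 lie farthest to the left in chronic colon, at -0.83 and -1.03, and the differences in acute colon lie between -0.34 and 0.40.

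Whether a drug's effect differed between the acute and the chronic colon was tested as an interaction over 18 libraries. The time, the route, the experiment and the level of the colon markers differ together and cannot be told apart, and the part of colon taken is not stated in the labels. For metformin 6 members had a larger effect in chronic colon (6.22% of all genes were called): Hexa by 0.58 ± 0.12 (SE, log2), Mcoln1 by 0.53 ± 0.14, Lamp1 by 0.52 ± 0.10, Lamp2 by 0.49 ± 0.12, Npc2 by 0.46 ± 0.12 and Atp6v1a by 0.45 ± 0.12. Under the block Npc2 (edgeR adjusted p = 0.0542) and Atp6v1a (0.0678) were lost. The count of 6 became 0 or 1 when the libraries of 1 batch number were left out.

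For imeglimin 9 members differed (16.3% of all genes were called), in opposite senses. Rragc (-0.87 ± 0.095), Flcn (-0.76 ± 0.13), Fnip2 (-0.97 ± 0.24), Tfeb (-0.80 ± 0.21), Tfe3 (-0.53 ± 0.12) and Sqstm1 (-0.60 ± 0.16) had a lower effect in chronic than in acute colon. Mitf (1.18 ± 0.27), Lamp2 (0.59 ± 0.12) and Atp6v1a (0.39 ± 0.12) had a higher one. The call of Atp6v1a was lost with the batch block (edgeR adjusted p = 0.0653). Rragc had the smallest edgeR adjusted p, 3.92e-05. Without the libraries of batch 1, 2 or 3 the count was 4, 1 or 3.

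Across the 4 chronic segments the metformin effect differed for 4 members (4.03% of all genes were called), in a test over 36 libraries of 4 tables that were counted separately. The effect on Flcn was 0.28 in proximal, 0.77 in middle, 1.43 in distal small intestine and 0.56 in colon (edgeR adjusted p = 0.00178). That on Atp6v1a was 0.14, 0.47, 0.50 and 0.88 in the same order (edgeR adjusted p = 0.0021), on Atp6v0d1 0.11, 0.32, 0.57 and 0.67 (edgeR adjusted p = 0.00533) and on Fnip1 0.42, 1.15, 1.11 and 0.70 (edgeR adjusted p = 0.0269; 0.112 with the batch block). Both pump subunits had their smallest value in proximal small intestine and their largest in colon. The imeglimin effect also differed for 4 members (2.96% of all genes were called). Its values were -0.07, 0.23, 0.30 and 0.74 for Atp6v1a (edgeR adjusted p = 0.00143), 0.15, -0.18, 0.82 and -0.27 for Flcn (edgeR adjusted p = 0.00395), 0.04, 0.18, 0.90 and 0.20 for Ctsl (edgeR adjusted p = 0.0105) and -0.03, 0.34, 0.30 and 0.47 for Atp6v0d1 (edgeR adjusted p = 0.0228). Each count fell to between 0 and 2 for metformin, and 0 and 1 for imeglimin, when 1 batch number was left out.

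In untreated mice 28 of the 36 members differed between the 4 segments, where 59.2% of all genes did. Levels here are CPM scaled over all 36 chronic libraries, and levels of different genes are compared per kb of exon. Rragd had the steepest gradient, with 127, 128 and 119 CPM in proximal, 85.4, 84.4 and 77.5 CPM in middle, 23.9, 26.3 and 33.2 CPM in distal small intestine and 2.87, 2.75 and 3.53 CPM in colon (edgeR adjusted p = 7.77e-22). No 2 neighbouring segments overlapped for it. Fnip2 ran the other way, at 9.22 ± 0.33, 7.61 ± 0.35, 9.29 ± 1.1 and 60.7 ± 9.3 CPM (SD, n = 3) from proximal to colon (edgeR adjusted p = 4.87e-15), with the small intestinal segments within a narrow range. Ctsl (40.9 ± 1.3, 36.2 ± 3.4, 48.6 ± 2.2 and 145 ± 16 CPM) and Npc2 (78.7 ± 4.9, 79.2 ± 6.5, 85.9 ± 7.7 and 161 ± 3.7 CPM) were likewise highest in colon.

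Neu1 had its highest mean in distal small intestine, at 38.2 ± 6.1, 75.9 ± 7.5, 203 ± 70 and 131 ± 11 CPM in the same order (edgeR adjusted p = 3.74e-10). Its distal libraries, at 122, 247 and 240 CPM, overlapped those of colon, at 122, 127 and 143 CPM. Ctsz fell from 206 ± 14 CPM in proximal through 170 ± 8.8 and 139 ± 3.0 CPM to 83.4 ± 2.2 CPM in colon (edgeR adjusted p = 1.04e-10), and its segments did not overlap. Lamp1 had 607 ± 58, 529 ± 74, 440 ± 80 and 312 ± 18 CPM (edgeR adjusted p = 1.3e-07), with neighbouring small intestinal segments overlapping. Rragc (edgeR adjusted p = 0.633), Mcoln1 (0.607), Clcn7 (0.824), Man2b1 (0.733), Gusb (0.352), Fuca1 (0.235), Atp6v1a (0.172) and Ctsd (0.148) were the 8 members not shown to differ. Per kb, Lamp1 was the most abundant member in proximal and middle small intestine (227 ± 22 and 198 ± 28 CPM per kb) and Psap in distal and colon (208 ± 38 and 173 ± 14 CPM per kb). Mitf was the lowest in each segment, and Rragd ranged from 24.1 ± 0.93 CPM per kb in proximal small intestine down to 0.59 ± 0.081 CPM per kb in colon. In the blocked fit Mitf, Tfeb, Sgsh and Atp6v1h were no longer called (edgeR adjusted p = 0.267, 0.332, 0.0667 and 0.0579).

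**Figure D4:**
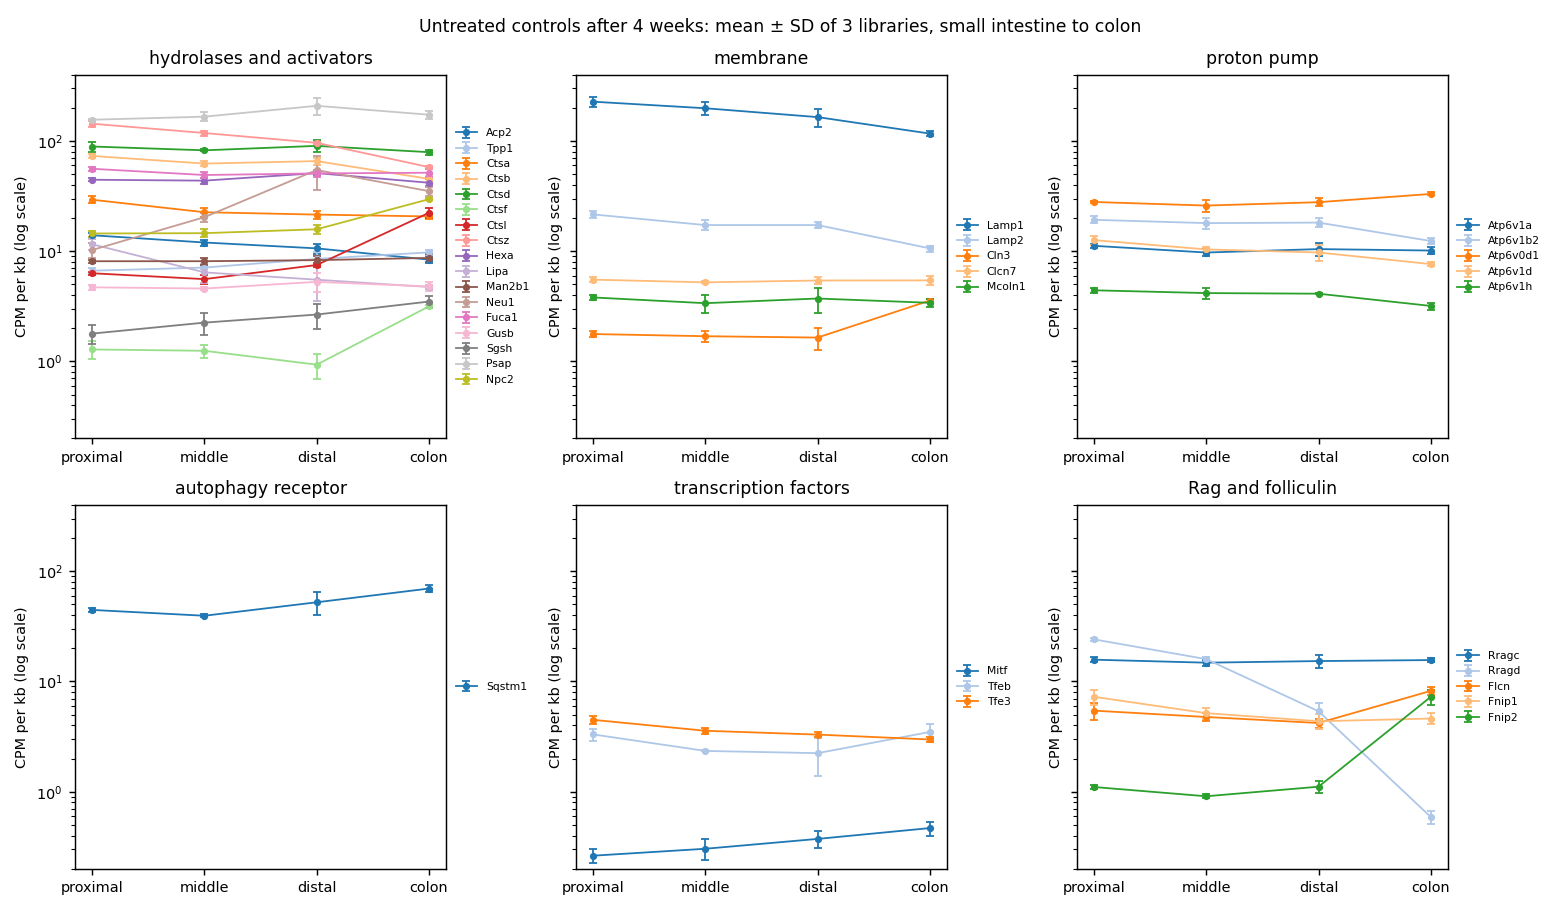
Level per kb of exon (CPM per kb, log axis) of the members in untreated chronic controls from proximal small intestine to colon, as means with SD bars of 3 libraries, in 1 panel per role. Rragd drops from 24.1 to 0.59 CPM per kb while Fnip2 climbs from 1.10 to 7.25 CPM per kb.

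Members rose both with and without the CLEAR core in their windows, and the difference between these sets was not tested. The set without it still holds members with the shorter E-box, namely Ctsf, Ctsl, Fnip1, Lamp1, Rragc and Sgsh. In chronic colon under metformin all 7 members with the CLEAR core were called higher, with a median log2 fold change of 0.40, and so were 18 of the 26 members whose window lacked it, with a median of 0.47. Of the 26, 1 was called lower, and over all genes 11.6% were higher and 8.04% lower. In acute colon 2 of the 7 and 8 of the 26 were called higher with metformin, and 3 and 10 with imeglimin. Called lower there were 0 of the 7 and 2 of the 26 with metformin, and 0 and 3 with imeglimin. Over all genes 11.3% rose and 8.37% fell with metformin, and 18.1% and 15.1% with imeglimin. In chronic colon under imeglimin the counts were 3 of 7 and 8 of 26, with 0 lower in either set. Over all genes 7.97% were higher and 5.07% lower there. Fnip2, with no CLEAR core in its window, rose in 4 of the 4 chronic segments under metformin.

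Another 156 genes of the pathway, none of them members, were followed in 8 lists. Their counts are to be read against the shares of all genes called: in acute colon 11.3% higher and 8.37% lower with metformin and 18.1% and 15.1% with imeglimin, and in chronic colon 11.6% and 8.04%, and 7.97% and 5.07%. Several of the counts below lie near or under these shares, among them those of the other hydrolases in acute colon with either drug. Among the remaining pump subunits, in chronic colon 9 of 13 tested rose and 0 fell with metformin (median log2 fold change 0.44), and 7 rose with imeglimin. In acute colon 7 rose and 1 fell with metformin and 9 rose and 1 fell with imeglimin. Atp6v1e1, a subunit of the peripheral stalk, was at 87.8 CPM in chronic colon controls, 143 CPM with metformin and 125 CPM with imeglimin (log2 fold changes 0.68 and 0.49). Atp6v0e rose from 40.1 to 60.5 CPM with metformin there (0.57), Atp6ap1 from 102 to 137 CPM with imeglimin (0.41), and in acute colon Atp6v0b from 92.1 to 137 CPM with metformin and 162 CPM with imeglimin, where Atp6v0c rose with imeglimin (0.77) and Atp6v1c1 with metformin (0.46).

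The other hydrolases and cofactors rose less evenly, with 11 of 30 higher and 1 lower in chronic colon under metformin, and 9 higher and 1 lower under imeglimin. Aga, an enzyme of glycoprotein breakdown, went from 23.2 to 51.3 CPM with metformin (log2 fold change 1.13, edgeR adjusted p = 0.000239) and to 38.1 CPM with imeglimin (0.69), while Dnase2a, the lysosomal DNase, was lower with imeglimin (-0.94). Arsa, a sulfatase, rose with metformin in proximal small intestine (0.55). In acute colon 2 of 30 rose and 2 fell with metformin, and 3 rose and 3 fell with imeglimin, among them Ids (-0.60).

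Membrane proteins outside the members were called in both directions in colon. In acute colon 1 of 20 rose and 4 fell with metformin, and 3 rose and 7 fell with imeglimin. In chronic colon 4 rose and 3 fell with metformin. Slc38a9, the lysosomal arginine sensor, was lower in acute colon with metformin (-0.60) and imeglimin (-0.95) and in chronic colon with metformin (-0.82) and imeglimin (-0.73). Npc1, the membrane partner of Npc2, was lower in chronic colon with metformin (-0.54) and imeglimin (-0.38). Slc17a5, the sialic acid exporter, rose with metformin in proximal (0.76) and middle small intestine (0.94), and the sialomucin Cd164 in distal small intestine (0.93, from 331 to 628 CPM).

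In the autophagy list for acute colon, 3 of 30 rose and 10 fell with metformin, and 3 rose and 12 fell with imeglimin. Atg13 of the initiating kinase complex (-0.76 and -0.91) and Wipi2 (-0.60 and -0.83) led it. In chronic colon 7 of 30 rose and 2 fell with metformin, led by Optn (0.87) and Atg5 (0.40), and 3 rose and 4 fell with imeglimin. Of the Ragulator and mTORC1 list, 5 of 30 rose and 5 fell in acute colon with metformin, and 10 rose and 7 fell with imeglimin. Sesn1, a leucine sensor, went from 29.7 CPM in the acute controls to 13.7 CPM with metformin (log2 fold change -1.12, edgeR adjusted p = 0.000115) and 13.1 CPM with imeglimin (-1.18, edgeR adjusted p = 4.11e-05). In chronic colon 8 of 30 rose and 1 fell with metformin, among them the Ragulator subunits Lamtor1 (0.62) and Lamtor3 (0.68).

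Small lists gave few calls. For mannose 6-phosphate delivery 2 of 9 rose and 1 fell with either drug in acute colon, Gga1 (0.49 and 0.69) and Gga3 (0.51 and 0.78) being higher, and 1 of 9 rose in chronic colon with metformin. With imeglimin in chronic colon Gga3 was lower than in the controls (-0.33, edgeR adjusted p = 0.0487). It was also lower there than with metformin (-0.58, edgeR adjusted p = 0.0397). Of the AMPK list, 3 of 11 rose and 1 fell in chronic colon with metformin, with Prkaa2, a catalytic subunit, higher (0.64) and Prkab2 lower (-0.70). Ppargc1b, a coactivator of mitochondrial genes, was higher in acute colon with metformin (0.65) and imeglimin (0.91), and Ppargc1a in chronic colon with metformin (0.55). In the small intestine each of these 8 lists had between 0 and 3 genes called with metformin and 0 with imeglimin.

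Markers of other cell types were read beside these counts. Macrophages are rich in lysosomes, and 0 of their 12 markers were called higher in any of the 10 comparisons with control, though in distal small intestine their summed level reached 742 CPM with imeglimin against at most 525 CPM in the controls. In chronic colon under metformin 0 rose and 2 fell, with summed levels of 223 to 308 CPM in the controls and 183 to 245 CPM with metformin, and in proximal small intestine 0 rose and 5 fell, with 419 to 496 CPM and 370 to 444 CPM. Of 12 epithelial markers 6 rose and 0 fell in chronic colon with metformin, where 11.6% of all genes rose and 8.04% fell. Their sums there were 12300 to 14200 CPM in the controls, 15100 to 16200 CPM with metformin and 14700 to 16300 CPM with imeglimin. In acute colon 4 of 12 rose with either drug, where 11.3% of all genes rose with metformin and 18.1% with imeglimin. The acute sums were 12600 to 13900 CPM in the controls and 14300 to 15800 CPM with metformin. With imeglimin they were 13000 to 15300 CPM and overlapped the controls. In chronic colon under metformin 7 of 10 fibroblast and 7 of 10 smooth muscle markers fell, the latter from 5500 to 5990 CPM down to 4030 to 4530 CPM. In proximal small intestine under metformin 9 of 10 smooth muscle markers fell (1050 to 1330 CPM and 576 to 852 CPM) and 6 of 6 Paneth cell markers fell (3420 to 6060 CPM and 1780 to 2210 CPM), while 0 of 12 epithelial markers were called. Of all genes 2.46% fell there. The summed B and plasma cell markers were 1110 to 1290 CPM in those controls and 734 to 814 CPM with metformin. For T and NK cell markers the sums were 86.8 to 89.8 CPM and 57.1 to 69.1 CPM. Of 10 goblet cell markers 3 rose with metformin in chronic colon and 2 with imeglimin, where 11.6% and 7.97% of all genes rose. Their sums there were 13200 to 16000 CPM in the controls, 17900 to 24900 CPM with metformin and 15900 to 19800 CPM with imeglimin. In acute colon 2 rose with metformin and 3 with imeglimin, where 11.3% and 18.1% of all genes rose. The acute sums were 19300 to 21000 CPM in the controls, 20100 to 26000 CPM with metformin and 23300 to 25600 CPM with imeglimin. Goblet sums overlapped the controls for metformin in acute and imeglimin in chronic colon. In acute colon the summed proximal small intestine markers stood at 247 to 369 CPM in the controls, 80.8 to 125 CPM with metformin and 70.8 to 89.2 CPM with imeglimin, with 1 of 5 tested called lower for each drug. In distal small intestine under metformin 0 of 10 smooth muscle and 0 of 6 Paneth cell markers were called, with sums of 1880 to 2580 CPM and 6080 to 19400 CPM in the controls and 990 to 1750 CPM and 3860 to 4460 CPM with metformin. None of these macrophage, epithelial, fibroblast or smooth muscle markers was at 0 in any library. The part of such shifts in the members' changes was not tested.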

How the data were processed

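Bulk RNA-seq read counts were analysed for 45 libraries in 5 tables of 9. The authors deposited whole-number counts per gene, not normalized, and HISAT2, StringTie, Trimmomatic, FastQC and the builds GRCm39 and mm10 appear, without roles or order, in the submitters' processing notes. Whether counting used strand is not stated in the labels. Per the labels' protocols, total RNA went into TruSeq Stranded mRNA libraries.

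Each table was fitted separately with edgeR 4.0.16 (R 4.3.3, limma 3.58.1): TMM scaling, filterByExpr, 3 groups and the quasi-likelihood F test, with Benjamini-Hochberg adjustment over all genes tested and calls at an adjusted p under 0.05. CPM values used the TMM-scaled totals, and levels per kb used GENCODE exon lengths. Interactions were fitted over joined tables of 18 and 36 libraries, which were counted separately. Errors are SE for log2 fold changes and SD for levels. Tests were checked on simulated counts. Alternatives were RLE scaling, DESeq2 1.42.0, no filter, a replicate block, only the 2 groups compared, and each library left out. Figures used Python 3.11.15 with matplotlib 3.10.9.

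The labels give each replicate number as a batch, so the numbers pair libraries across groups. Deviations from the group means of libraries with the same number had a mean r from -0.132 (distal) to 0.0687 (chronic colon), while single pairs ran from -0.621 to 0.271, both in distal. All 36 members could be named; within each role, library values went to those with the smallest adjusted p, and to all Rag, folliculin and transcription factor genes and Sqstm1. From each pathway list the 2 called genes with the smallest adjusted p per comparison could be named; 1 of them is not reported here. The members and lists were chosen with earlier results of these data known. The single-cell files were not used here, and 0 columns of the count tables were left out.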

Additional observations from a re-analysis of the deposited data

Results flagged for a closer look

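Drug effects on several members differed between the acute and the chronic colon by edgeR's interaction test, adjusted over all genes. Time, route, experiment and the level of the colon markers differed together there and cannot be told apart. Leaving out 1 batch number took the 6 calls for metformin to 0 or 1. The 9 calls for imeglimin became between 1 and 4. For metformin the adjusted p was 0.00619 for Lamp1, 0.0103 for Hexa, 0.025 for Lamp2, 0.0273 for Npc2, 0.0294 for Atp6v1a and 0.0371 for Mcoln1, each with the larger effect in chronic colon. For imeglimin it was 3.92e-05 for Rragc, 0.00104 for Flcn, 0.00859 for Tfe3, 0.0117 for Fnip2, 0.0152 for Tfeb and 0.0167 for Sqstm1, each lower in chronic colon, and 0.0039 for Lamp2, 0.0066 for Mitf and 0.0307 for Atp6v1a, each higher there.

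By the same kind of test the effect of a drug also differed between the 4 chronic segments for some members. Leaving out 1 batch number took the 4 calls for metformin to between 0 and 2, and the 4 for imeglimin to 0 or 1. For metformin the edgeR adjusted p was 0.00178 for Flcn, 0.0021 for Atp6v1a, 0.00533 for Atp6v0d1 and 0.0269 for Fnip1. For imeglimin it was 0.00143 for Atp6v1a, 0.00395 for Flcn, 0.0105 for Ctsl and 0.0228 for Atp6v0d1.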

How the results depend on the processing

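No call on a single member that has a direction reversed it under any alternative run. The tests across the 4 chronic segments have no single direction, so no reversal could be seen there. Of 169 calls on single members, DESeq2 lost 1, RLE scaling 2, no filter 19 and the replicate block 37; fitting only the 2 groups lost 27 of 118, and leaving out 1 library lost 289 of 861. With DESeq2 the members called numbered 16 for metformin in distal and 19 in middle small intestine, 9, 11 and 4 for imeglimin in distal, middle and proximal, 14, 12, 10 and 1 for imeglimin against metformin in chronic colon, proximal, middle and distal, 11 for the metformin effect in chronic against acute colon and 7 for the imeglimin effect across segments. The share of all genes that DESeq2 called was not counted, so its counts of members have no background. With no filter they were 5 for metformin in distal, 2 for imeglimin against metformin in chronic colon and 2 for the metformin effect in chronic against acute colon. With only the 2 groups compared they were 2 for metformin in distal and 2 in middle, 0 for imeglimin in distal and 0 in proximal, and 1 for imeglimin against metformin in chronic colon. With the replicate block they were 2 for metformin in distal and 5 in middle, and 0 for imeglimin in distal and 0 in proximal; 2 members were gained under the block, Ctsa for the metformin effect across segments (edgeR adjusted p = 0.0495) and Neu1 for imeglimin against metformin in chronic colon (0.0457), and beside these and the losses given with their blocked p it changed no other call of a member. Leaving out 1 library gave, for metformin against control, 24 to 26 in chronic colon, 8 to 14 in acute colon, 5 to 12 in proximal, 0 to 9 in middle and 2 to 8 in distal. For imeglimin against control it gave 15 to 19 in acute colon, 8 to 11 in chronic colon, 0 to 1 in proximal, 0 to 0 in middle and 0 to 0 in distal. For imeglimin against metformin it gave 1 to 9 in chronic colon, 0 to 2 in proximal and 0 in the other tables. Leaving out 1 batch number gave 0 to 1 and 1 to 4 for the metformin and imeglimin effects in chronic against acute colon, 0 to 2 and 0 to 1 for those across segments, and 24 to 27 for the untreated controls. The cause was not tested.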
